A study of Mus musculus with 33 samples.

Results

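The genes of the mouse mitochondrial genome were followed across sorted blood-forming cells of old mice given nicotinamide riboside (NR), a precursor of NAD+. The set was chosen by name, as all gene symbols that begin with mt-, and held 37 of the 55376 genes counted: 13 mRNAs, 2 rRNAs and 22 tRNAs. RNA-seq libraries were made from 33 sorted populations of male C57BL/6 mice that the study's methods place at 24 to 29 months of age. Old untreated mice are named O-WT, mice that drank NR-supplemented water for 4 to 6 weeks O-NR, and mice that received NR and then went without it for 2 months O-NR-RC. Cohort 1 held HSCs (hematopoietic stem cells) from O-WT (n = 2), O-NR (n = 4) and O-NR-RC mice (n = 3). Cohort 2 held HSCs, CLPs (common lymphoid progenitors) and GMPs (granulocyte-macrophage progenitors) from O-WT and O-NR mice, with 4 libraries in each of the 6 groups. The GMP libraries were grouped by their titles, while another label of the same libraries calls them common myeloid progenitors. HSCs were sorted as CD150+ cells of the lineage-negative, c-Kit and Sca1 positive fraction that lacked CD34 and Flk2. A difference between the 2 labelled cohorts cannot be told apart from a batch. The labels do not tie a replicate number to a mouse, so the p-values describe the spread between these libraries, which may be technical.

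Mitochondrial DNA is a small circle present in many copies per cell. Both of its strands are transcribed by a dedicated RNA polymerase into long precursors, and the tRNAs that lie between the other genes are cut out to release the mRNAs and rRNAs. The mRNAs code for core subunits of respiratory complexes I, III, IV and V, the 2 rRNAs build the mitochondrial ribosome, and the tRNAs serve translation inside the organelle. Of the 37 genes, 28 are read in one direction (heavy-strand products, on the plus strand of chrM) and 9 in the other (light-strand products, on the minus strand). The light-strand products are mt-Nd6, a complex I subunit and the only mRNA among them, and 8 tRNAs. NAD+ takes the electrons that complex I receives as NADH, and HSCs are often described as relying less on respiration than the progenitors they give rise to. By dye staining, the paper reports a higher mitochondrial membrane potential in HSCs than in differentiated cells.

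The sequences shown first are of mt-Nd6 and mt-Nd1, on which the cell type results turn, and of mt-Cytb, the neighbour of mt-Nd6, for comparison. They were taken from Gencode M21 transcripts (build mm10), 5′ to 3′ in the direction of the RNA, with G in capitals. G made up 28.1% of mt-Nd6, 12.2% of mt-Cytb and 11.6% of mt-Nd1. The first 60 bases of mt-Nd6 (ENSMUSG00000064368.1, chrM:13552-14070, minus strand) stand beside those of 2 heavy-strand mRNAs, mt-Cytb (chrM:14145-15288), the complex III subunit cytochrome b, and mt-Nd1 (ENSMUSG00000064341.1, chrM:2751-3707), a complex I subunit.
mt-Nd6: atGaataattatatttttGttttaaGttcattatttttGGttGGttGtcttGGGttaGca
mt-Cytb: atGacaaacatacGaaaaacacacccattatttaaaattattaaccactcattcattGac
mt-Nd1: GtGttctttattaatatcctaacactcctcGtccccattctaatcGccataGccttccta

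Among the tRNAs whose levels separated cell types or cohorts were mt-Tq for glutamine (chrM:3772-3842, minus strand), mt-Tp for proline (chrM:15356-15422, minus strand), mt-Ta for alanine (chrM:5018-5086, minus strand), mt-Ty for tyrosine (chrM:5260-5326, minus strand) and mt-Th for histidine (chrM:11546-11612, plus strand). Others, such as mt-Tt and mt-Tw, are not shown here. All 5 genes are shown whole.
mt-Tq: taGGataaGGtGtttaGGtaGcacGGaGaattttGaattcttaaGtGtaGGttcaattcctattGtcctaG
mt-Tp: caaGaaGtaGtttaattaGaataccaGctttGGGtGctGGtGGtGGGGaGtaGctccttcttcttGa
mt-Ta: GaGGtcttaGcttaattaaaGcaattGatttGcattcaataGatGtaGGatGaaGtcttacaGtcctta
mt-Ty: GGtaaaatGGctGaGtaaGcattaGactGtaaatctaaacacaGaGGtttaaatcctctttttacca
mt-Th: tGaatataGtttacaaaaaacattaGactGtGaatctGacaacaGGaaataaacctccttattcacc

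The libraries held 4792380 to 23816042 counted reads. Levels are given as CPM, the counts scaled to 1000000 counted reads in a library, and mitochondrial shares as percent of all counted reads. At this depth the exact binomial 95% interval of a library's share was 0.0211 to 0.0504 percentage points wide, which covers counting error only. The labelled cell types were checked against lists of defining genes. The summed level of the HSC markers was 822 to 1544 CPM in the HSC libraries, at most 142 CPM in CLPs and at most 54.6 CPM in GMPs. The CLP markers summed to 2795 to 4525 CPM in CLPs and to at most 159 CPM in cohort 2 HSCs and GMPs. The GMP markers summed to 17263 to 19895 CPM in GMPs and to at most 572 CPM in CLPs. Markers of B and plasma cells summed to 67 to 725 CPM in O-WT and 15.5 to 114 CPM in O-NR HSCs of cohort 2, and their part in the NR differences was not tested.

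Mitochondrial transcripts made up a larger share of the cohort 2 HSC libraries than of the GMP libraries. In O-WT mice the 4 HSC libraries held 11.1%, 11.1%, 10.4% and 10.5% mitochondrial reads, and the 4 GMP libraries 9.10%, 8.01%, 9.28% and 7.66%. The ranges did not overlap, and the means were 10.8% ± 0.377 (SD, n = 4) and 8.51% ± 0.798 (SD, n = 4). In O-NR mice the shares were 11.6% ± 0.973 in HSCs and 8.48% ± 0.279 in GMPs (SD, n = 4 each), again without overlap. CLPs lay between them, at 9.95% ± 1.28 in O-WT and 10.9% ± 0.583 in O-NR mice (SD, n = 4 each), and overlapped the HSCs in both arms. These shares are a description of the libraries, with no test. Most of these reads were rRNA that remained after the kit's depletion of ribosomal cDNA, and the part of that step in the differences was not tested.

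**Figure D1:**
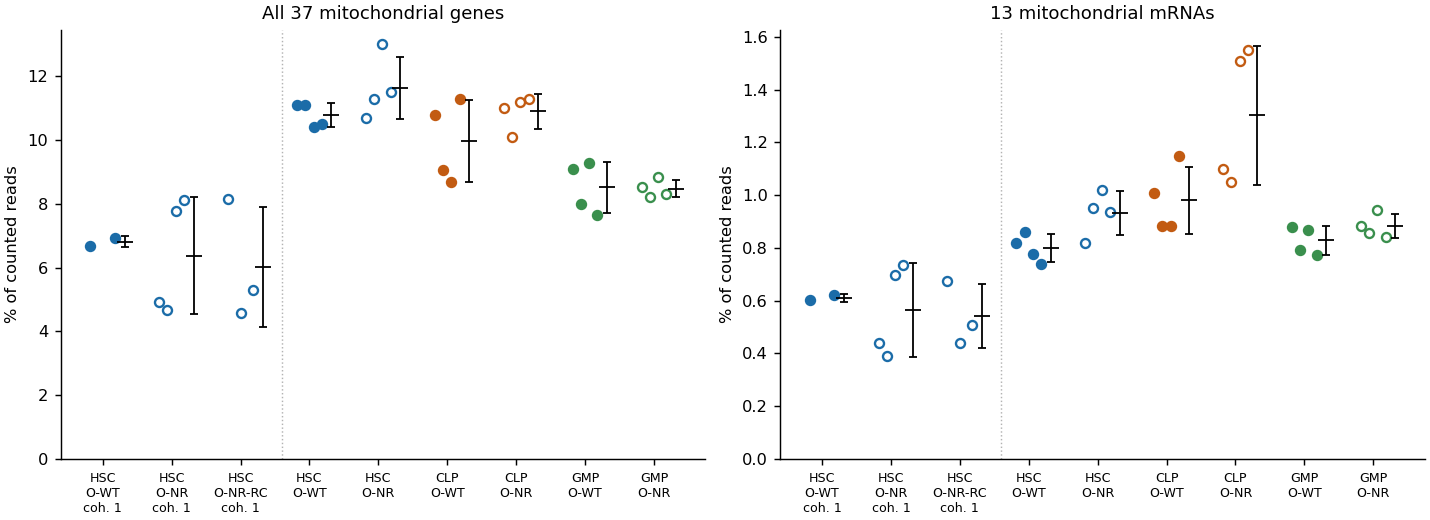
Mitochondrial share of all counted reads in each library, in percent, for all 37 genes (left) and the 13 mRNAs (right), by group; points are libraries and bars give the mean ± SD. For all 37 genes, cohort 2 HSC libraries lie at 10.4% and above, GMP libraries at 9.28% and below, and the cohort 1 HSC libraries between 4.59% and 8.14%.

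The order of the cell types in the share was that of the rRNAs, and the mRNAs had another order. Reads on mt-Rnr1 (chrM:70-1024), the small ribosomal subunit's RNA, and mt-Rnr2 (chrM:1094-2675), that of the large subunit, were 86.3% to 92.9% of all mitochondrial reads in the 33 libraries. In O-WT mice mt-Rnr2 stood at 72764, 69975, 68364 and 69742 CPM in HSCs and at 57308, 50552, 58687 and 47870 CPM in GMPs, without overlap, with the CLPs at 53241 to 67481 CPM. In O-WT mice the mRNAs together took 0.799% ± 0.0537 of HSC reads, 0.981% ± 0.126 of CLP reads and 0.828% ± 0.0533 of GMP reads (SD, n = 4 each). In O-NR mice they were 0.932% ± 0.0844, 1.3% ± 0.264 and 0.882% ± 0.0461 (SD, n = 4 each). CLPs were above HSCs in mRNA share without overlap in both arms, and HSCs and GMPs overlapped in both. In O-WT mice HSCs held 2.40 ± 0.143 counts of mt-Rnr2 per count of mt-Rnr1, CLPs 2.06 ± 0.0729 and GMPs 2.31 ± 0.0226 (SD, n = 4 each). The tRNAs summed to 23.2 to 139 CPM in cohort 2.

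The lower rRNA level of GMPs depended on the scale. With TMM scaling, which sets libraries to a common level of most genes, the difference between GMPs and HSCs of O-WT mice was 0.01 (SE 0.34) on the log2 scale for mt-Rnr1 and −0.04 (SE 0.38) for mt-Rnr2, and neither was called by edgeR's quasi-likelihood test (adjusted p = 0.935 for mt-Rnr2). As log2 CPM without scaling the same libraries differed by −0.34 ± 0.09 (SE) for mt-Rnr1 and −0.39 ± 0.07 (SE) for mt-Rnr2. The TMM factors of this fit were 0.75 to 0.919 in GMPs, 0.912 to 1.22 in HSCs and 1.02 to 1.41 in CLPs, and the median difference of all tested genes between GMPs and HSCs moved from −0.31 with TMM to −0.68 with total counts. In O-NR mice the fitted difference was −0.22 for mt-Rnr1 and −0.25 for mt-Rnr2 and not called, against −0.47 ± 0.06 and −0.50 ± 0.07 (SE) as log2 CPM, and with total counts mt-Rnr2 was called lower in GMPs (adjusted p = 0.000146 by edgeR's quasi-likelihood test). Cell type differences below are TMM-scaled. The count with total counts is given beside each count of members, and for the nuclear lists in O-WT mice only.

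The 13 mRNAs spanned more than 4 orders of magnitude in counted level, and 5 of the 6 lowest had a near-identical nuclear copy. The median over the 24 cohort 2 libraries was 2896 CPM for mt-Co1 (complex IV), 1818 CPM for mt-Nd5 (complex I), 1701 CPM for mt-Cytb, 1168 CPM for mt-Nd1, 540 CPM for mt-Nd4, 521 CPM for mt-Nd2 and 219 CPM for mt-Nd6. It was 12.7 CPM for mt-Nd3, 0.333 CPM for mt-Nd4l, 0.254 CPM for mt-Atp6, 0.137 CPM for mt-Co2, 0.115 CPM for mt-Co3 and 0.061 CPM for mt-Atp8. Along chrM the low genes form 1 stretch, from mt-Co2 to mt-Nd4l, between mt-Co1 and mt-Nd4.

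Each stretch of the members as long as a read of the study was looked for in the nuclear transcripts of Gencode M21. Of the stretches of mt-Co2, 99.5% were found unchanged in Gm28661, of mt-Atp6 99.5% in Gm10925, of mt-Co3 99.9% in Gm28437, of mt-Nd4l 98.4% in Gm10222 and of mt-Nd3 97.5% in Gm28438. For mt-Nd4 the share was 60.6%, for mt-Co1 29.9% and for mt-Nd2 2.68%. No stretch of mt-Nd1, mt-Nd5, mt-Nd6, mt-Cytb, mt-Atp8 or the rRNAs was found in a nuclear transcript. A read that matches a member and its copy equally well can be counted for neither, so the counted levels of the members with copies are uncertain, and how such reads were treated is not given in the sources used here. The copies themselves were also at low levels: those on chromosome 1 reached at most 5.21 CPM in any library. In cohort 2 the median of Gm10925 (1.13 CPM) was above that of mt-Atp6 (0.254 CPM). The same held for Gm28661 (0.533 CPM) over mt-Co2 (0.137 CPM) and Gm28437 (0.309 CPM) over mt-Co3 (0.115 CPM). The chromosome 1 copies of mt-Nd3, mt-Nd4l, mt-Nd4 and mt-Co1 lay below their members.

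The copies of mt-Co1 to mt-Nd4 lie together on chromosome 1 (chr1:24611535-24616197, minus strand, mm10), in the order and at the spacing of chrM. The gap between the copies of mt-Co1 and mt-Co2 and that between the genes themselves are both 140 bases, and on chrM this gap holds mt-Ts1 and mt-Td. The gap from mt-Co2 to mt-Atp6 is 233 bases in both places and on chrM holds mt-Tk and mt-Atp8, and that from mt-Co3 to mt-Nd3 is 69 bases in both and holds mt-Tg. The gap from mt-Nd3 to mt-Nd4l, which holds mt-Tr, is 73 bases on chrM and 74 on chromosome 1. mt-Td and mt-Tk, which lie in such gaps, had 0 counts in all 33 libraries, and the nuclear stretch in place of these gaps was not compared with chrM here. The first 60 bases of mt-Nd3 and of its copy are shown to give the scale of the likeness, with the differing base, T3C counted from 1 at the 5′ end, in capitals.
mt-Nd3: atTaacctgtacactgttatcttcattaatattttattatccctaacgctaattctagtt
Gm28438: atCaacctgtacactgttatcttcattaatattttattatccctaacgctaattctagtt

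**Figure D2:**
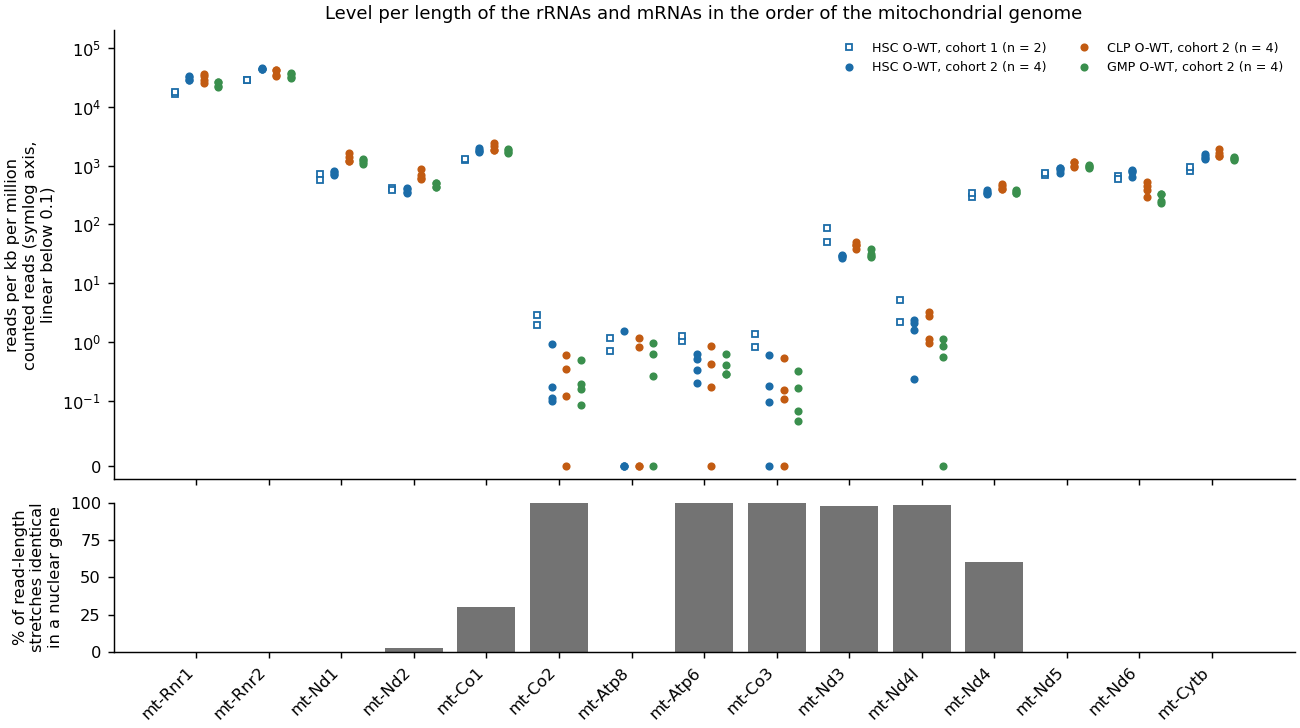
Upper panel, counted level per length of the 2 rRNAs and 13 mRNAs in chromosome order, as reads per kilobase per 1000000 counted reads on a log axis that is linear near 0, with 1 point per O-WT library. Lower panel, percent of each gene's read-length stretches found unchanged in a nuclear gene. The rRNAs stand highest, and mt-Co2, mt-Atp8, mt-Atp6, mt-Co3 and mt-Nd4l lie far below the other mRNAs.

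The members called between cell types differed in direction. Compared with HSCs, CLPs and GMPs of O-WT mice had less of the light-strand RNAs mt-Nd6, mt-Tp, mt-Tq and mt-Ta and more of mt-Nd1 and mt-Nd2, the heavy-strand mRNAs of 2 complex I subunits that follow the rRNAs on chrM. Of the 19 members with enough counts to test, 6 were called between CLPs and HSCs (2 higher and 4 lower in CLPs), where 30.3% of all tested genes were called, 10.4% higher and 19.9% lower. Between GMPs and HSCs 7 of 19 were called (2 higher and 5 lower in GMPs), where 44.2% of all tested genes were called, 22.6% higher and 21.5% lower. The CLP and GMP comparisons share their HSC libraries. With total counts in place of TMM factors the calls were 5 higher and 2 lower in CLPs, and 2 higher and 6 lower in GMPs. Calls are at an adjusted p under 0.05 in edgeR's quasi-likelihood test, adjusted by Benjamini-Hochberg over all tested genes. The shares of members called were thus near or below those of all genes. In CLPs the split into higher and lower was near that of all genes as well. With TMM scaling the members called higher were heavy-strand products. Those called lower were light-strand products, except mt-Tt in GMPs. This split by strand was not tested. In CPM 8 of the 19 tested members did not overlap between CLPs and HSCs of O-WT mice, and 11 between GMPs and HSCs. The share of all genes without overlap between cell types is not given here. Ranges that do not overlap between cell types thus do not set a member apart from other genes.

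The level of mt-Nd6 was 327, 426, 397 and 433 CPM in HSCs of O-WT mice, 152, 203, 270 and 234 CPM in CLPs and 133, 119, 168 and 171 CPM in GMPs. HSCs overlapped neither progenitor, and CLPs and GMPs overlapped each other. The fitted log2 difference was −1.04 (SE 0.19, adjusted p = 6.47e-05) in CLPs and −1.08 (SE 0.19, adjusted p = 2.48e-05) in GMPs against HSCs, by edgeR's quasi-likelihood test. In O-NR mice the levels were 304, 553, 306 and 387 CPM in HSCs, 168, 161, 305 and 257 CPM in CLPs and 140, 115, 169 and 113 CPM in GMPs. There the highest CLP library lay between the 2 lowest HSC libraries, and the GMPs did not overlap the HSCs. The log2 differences from HSCs were −0.79 (SE 0.18, adjusted p = 0.000901) in CLPs and −1.25 (SE 0.18, adjusted p = 2.03e-06) in GMPs. The direction was negative with TMM, total counts, nuclear-gene scaling and DESeq2 in all 4 comparisons, and ran from −0.88 to −1.04 for CLPs and from −0.90 to −1.42 for GMPs of O-WT mice.

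The level of mt-Nd1 took the opposite course. It was 763, 733, 686 and 656 CPM in HSCs of O-WT mice, 1359, 1154, 1140 and 1588 CPM in CLPs and 1226, 1110, 1182 and 1012 CPM in GMPs. Every progenitor library exceeded every HSC library, a separation that is not set beside that of all genes. The log2 difference from HSCs was 0.76 (SE 0.23, adjusted p = 0.0134) in CLPs and 1.03 (SE 0.23, adjusted p = 0.000646) in GMPs by edgeR's quasi-likelihood test. In O-NR mice it was 1.18 (SE 0.17, adjusted p = 3.05e-06) in CLPs and 0.86 (SE 0.17, adjusted p = 0.000119) in GMPs. Of these 4 calls, that in CLPs of O-WT mice was lost without CLP O-WT replicate 4 (adjusted p = 0.067). For mt-Nd2 the corresponding differences were 0.73 (SE 0.22, adjusted p = 0.0112) and 0.66 (SE 0.22, adjusted p = 0.0146) in O-WT mice, and 1.09 (SE 0.18, adjusted p = 1.33e-05) and 0.42 (SE 0.17, adjusted p = 0.0499) in O-NR mice. The call of mt-Nd2 in CLPs of O-WT mice was also lost without that library (adjusted p = 0.0711), and its call in GMPs of O-WT mice without HSC O-WT replicate 3 or CLP O-WT replicate 2. Its call in GMPs of O-NR mice held in 5 of 12 fits that left out 1 library each, and was lost without HSC O-NR replicate 1, 2 or 4 or any 1 GMP O-NR library. That call held under 3 of 8 other settings. It was lost with total counts, with nuclear-gene scaling and with all 24 cohort 2 libraries in 1 fit. It was also lost without a minimum level for genes and at a minimum of 1 CPM.

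By edgeR's quasi-likelihood test with TMM scaling no other mRNA was called against HSCs in O-WT mice, while DESeq2 called 5 members higher in GMPs in place of 2. The gene of the catalytic subunit of complex IV, mt-Co1, was at 2861, 3040, 2719 and 2617 CPM in HSCs of O-WT mice, 3310, 2856, 2809 and 3727 CPM in CLPs and 2914, 2599, 2879 and 2503 CPM in GMPs, and all 3 groups overlapped. For mt-Cytb the means in O-WT mice were 1630, 1851 and 1511 CPM in HSCs, CLPs and GMPs. Neither gene was called between any 2 of the cell types in O-WT mice by this test, and with total counts mt-Cytb was called lower in GMPs than in CLPs (−0.29, adjusted p = 0.0402). In O-NR mice CLPs also had more of mt-Nd3 (log2 difference 0.91, SE 0.22, adjusted p = 0.00178), mt-Nd5 (0.48, SE 0.15, adjusted p = 0.0119) and mt-Nd4 (0.44, SE 0.15, adjusted p = 0.0216) than HSCs, by edgeR's quasi-likelihood test. The call of mt-Nd4 was lost without HSC O-NR replicate 1 or 4 or CLP O-NR replicate 3 or 4, and that of mt-Nd5 without HSC O-NR replicate 1 or CLP O-NR replicate 4. Both were also lost with all 24 cohort 2 libraries in 1 fit, without a minimum level for genes and at a minimum of 1 CPM. The counts of mt-Nd3 are uncertain through its near-identical nuclear copy.

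All tRNA calls against HSCs were toward lower levels, and all but mt-Tt were light-strand products. Levels were low, so each value rests on few reads. The proline tRNA mt-Tp was at 12.8, 29.3, 16 and 21.5 CPM in HSCs of O-WT mice, 5.12, 12.6, 9.81 and 10.2 CPM in CLPs and 7.06, 3.18, 8.02 and 7.66 CPM in GMPs. HSCs and GMPs did not overlap, and the highest CLP library was just below the lowest HSC library. Its log2 difference from HSCs was −1.20 (SE 0.28, adjusted p = 0.00114) in CLPs and −1.26 (SE 0.27, adjusted p = 0.000377) in GMPs by edgeR's quasi-likelihood test, and −0.88 (SE 0.26, adjusted p = 0.00871) and −1.38 (SE 0.26, adjusted p = 8.96e-05) in O-NR mice. The glutamine tRNA mt-Tq was at 8.53, 28.8, 18.1 and 19.5 CPM in HSCs, 2.86, 10.6, 13.8 and 12 CPM in CLPs and 5.78, 3.13, 4.44 and 6.64 CPM in GMPs of O-WT mice. GMPs were below every HSC library, while 3 CLP libraries exceeded the lowest HSC library.

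For mt-Tq the log2 difference from HSCs was −1.06 (SE 0.32, adjusted p = 0.0122) in CLPs and −1.53 (SE 0.32, adjusted p = 0.000284) in GMPs of O-WT mice by edgeR's quasi-likelihood test. In O-NR mice it was −0.69 (SE 0.3, adjusted p = 0.0668) in CLPs, which was not called, and −1.39 (SE 0.3, adjusted p = 0.000394) in GMPs. With total counts the call in CLPs of O-WT mice was lost (adjusted p = 0.103). The alanine tRNA mt-Ta was lower in CLPs (−1.14, SE 0.38, adjusted p = 0.0237) and GMPs (−1.29, SE 0.38, adjusted p = 0.00669) of O-WT mice and in GMPs of O-NR mice (−1.16, SE 0.35, adjusted p = 0.00767), where the call was lost without HSC O-NR replicate 2. The call of mt-Ta in CLPs was lost with total counts and without any 1 of 4 libraries (HSC O-WT replicates 2 and 4 and CLP O-WT replicates 1 and 2). Of the other 2 light-strand tRNAs tested, mt-Te (glutamate) was called lower in GMPs of O-NR mice alone (−1.3, SE 0.46, adjusted p = 0.0218), a call lost without HSC O-NR replicate 2 or 4 or GMP O-NR replicate 1 or 4, and mt-Ty was called in none of the 4 comparisons, with log2 differences from −0.60 to 0.86. On the heavy strand mt-Tt (threonine) was lower in GMPs of O-WT (−1.35, SE 0.37, adjusted p = 0.0034) and O-NR mice (−1.73, SE 0.46, adjusted p = 0.0026).

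Light-strand genes overlap heavy-strand ones at their ends, mt-Nd6 with mt-Nd5 by 14 bases and mt-Tq with mt-Ti by 3 bases. They also lie opposite the heavy-strand precursor. Whether reads were counted by strand is not given in the sources used here, and reads from the facing strand cannot be told apart without it. The levels of the mRNAs relative to each other do not depend on the scaling of libraries. In O-WT mice mt-Nd6 took 4.98% ± 0.77 of mRNA reads for HSCs, 2.23% ± 0.651 for CLPs and 1.79% ± 0.343 for GMPs, and mt-Nd1 8.88% ± 0.328, 13.3% ± 0.422 and 13.7% ± 0.439 (SD, n = 4 each). In O-NR mice mt-Nd6 was 4.16% ± 1.19, 1.69% ± 0.231 and 1.51% ± 0.215, and mt-Nd1 9.49% ± 0.4, 15.4% ± 1.25 and 15.4% ± 0.418 (SD, n = 4 each). For both genes HSCs overlapped neither progenitor in either arm. The same held for mt-Nd2, with a larger part in both progenitors, and for the heavy-strand mt-Co1 and mt-Cytb, with a smaller part in both. In O-WT mice mt-Co1 took 35.2% of mRNA reads in HSCs, 32.3% in CLPs and 32.9% in GMPs, and mt-Cytb 20.4%, 18.8% and 18.2%. These are parts of a whole, so a larger part for mt-Nd1 leaves less for the other genes. By CPM in O-WT mice, as given above, mt-Co1 overlapped between cell types and the mean of mt-Cytb was higher in CLPs than in HSCs. In cohort 1 mt-Nd6 was 5.42% ± 0.617 (O-WT, n = 2), 5.02% ± 0.297 (O-NR, n = 4) and 5.22% ± 0.507 (O-NR-RC, n = 3) of mRNA reads, above every cohort 2 CLP and GMP mean. In the same HSC libraries mt-Nd1 took 8.73% to 12.3%, below every such mean. Other genes did not follow the cohort 2 HSCs. There mt-Nd2 took 6.18% to 7.3%, against 4.95% in HSCs and 5.93% in GMPs of cohort 2 O-WT mice. For mt-Cytb the range was 15.4% to 17.4%, below the CLP and GMP means. Cohort cannot be told apart from batch here.

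**Figure D3:**
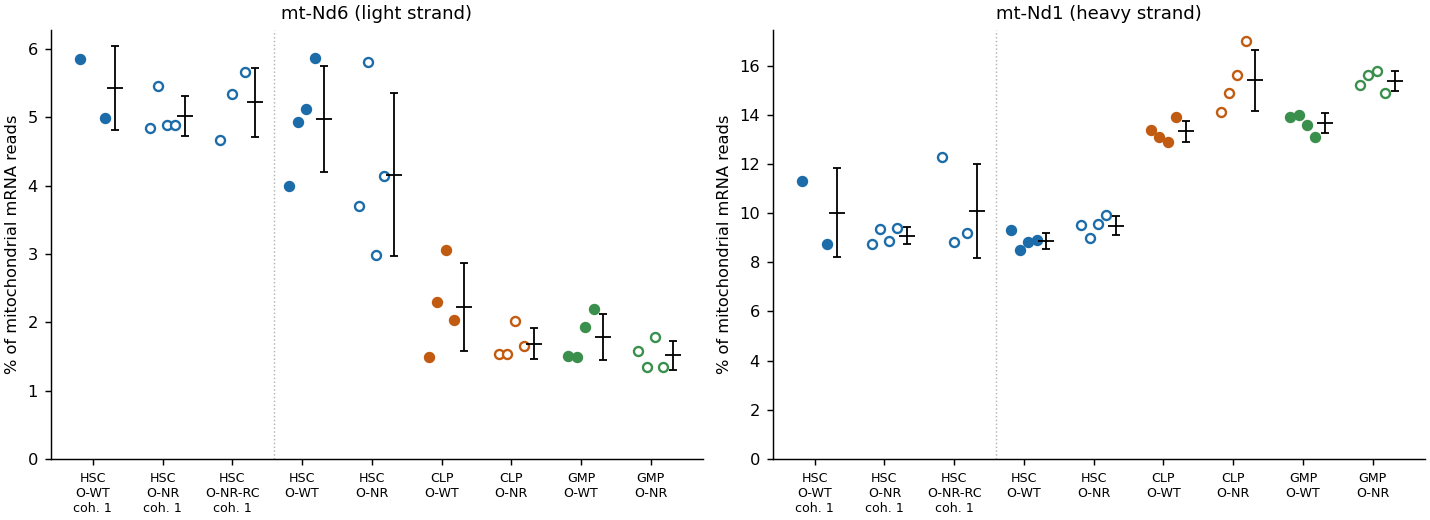
Percent of the reads on the 13 mitochondrial mRNAs that fell on mt-Nd6 (left) and on mt-Nd1 (right) in each library, by group; points are libraries and bars give the mean ± SD. In O-WT mice of cohort 2 the mean of mt-Nd6 is 4.98% in HSCs, 2.23% in CLPs and 1.79% in GMPs, and that of mt-Nd1 is 8.88%, 13.3% and 13.7%.

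In O-NR mice 7 of 20 members were called between CLPs and HSCs (5 higher and 2 lower in CLPs, against 40.9% of all genes, 18.3% higher and 22.6% lower), and 8 of 20 between GMPs and HSCs (2 higher and 6 lower in GMPs, against 46.4%, 24.4% higher and 22% lower). With total counts these were 6 higher and 3 lower, and 1 higher and 9 lower. Between GMPs and CLPs 0 of 19 members were called in O-WT mice, where 60.8% of all genes were called, 0 had an unadjusted p under 0.05 (66.9% of all genes) and DESeq2 called 2. In O-NR mice 7 of 20 members were lower in GMPs than in CLPs and 0 higher, against 50.1% of all genes called, 26.1% higher and 23.9% lower. They were mt-Nd2, mt-Nd3, mt-Nd6, mt-Ti, mt-Tm, mt-Tt and mt-Tw, of which mt-Nd6, mt-Tm and mt-Tt were lost without any 1 of several libraries (CLP O-NR replicate 3 and GMP O-NR replicates 1, 2 and 4 for all 3 genes, CLP O-NR replicate 4 for mt-Nd6 and mt-Tm, and GMP O-NR replicate 3 for mt-Tm). With total counts the GMP comparison with CLPs gave 6 of 19 lower in O-WT and 16 of 20 lower in O-NR mice, so the number of members lower in GMPs depended on the scaling in both arms.

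Nuclear genes whose proteins work with the mitochondrial transcripts were described from 8 lists. In GMPs of O-WT mice the nuclear subunits of the respiratory complexes were higher than in HSCs: 7 of 7 core subunits of complex I, 8 of 9 of complex III, 10 of 10 of complex IV and 17 of 17 of complex V were called higher and none lower, where 22.6% of all tested genes were higher and 21.5% lower. List medians were 0.98, 1.43, 1.44 and 1.24 on the log2 scale, beside −0.31 over all tested genes and −0.02 over the mitochondrial members. Examples were Ndufv1 (1.3, adjusted p = 6.1e-07), Uqcrq (2.13, adjusted p = 1.79e-10), Cox5a (2.2, adjusted p = 1.45e-10) and Atp5g1 (1.69, adjusted p = 2.69e-08), by edgeR's quasi-likelihood test. With total counts 6 of 7, 8 of 9, 10 of 10 and 16 of 17 were higher and none lower, with medians of 0.63, 1.08, 1.1 and 0.9. The summed level of the complex IV list was 328 to 410 CPM in HSCs and 768 to 840 CPM in GMPs. In O-NR mice the counts in GMPs were 7 of 7, 9 of 9, 10 of 10 and 17 of 17 higher, where 24.4% of all genes were higher and 22% lower. Of the mitochondrial mRNAs for the same complexes, mt-Nd1 and mt-Nd2 of complex I were higher and mt-Nd6 of complex I lower in GMPs of O-WT mice as described above. Of the same complex mt-Nd3 (0.50), mt-Nd4 (0.39) and mt-Nd5 (0.54) were not called (adjusted p = 0.0597, 0.114 and 0.0615 by edgeR's quasi-likelihood test), nor were mt-Co1 of complex IV and mt-Cytb of complex III. The difference between nuclear and mitochondrial subunits itself was not tested.

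In CLPs of O-WT mice few of the same genes were called against HSCs, with 0 of 7 core subunits of complex I and 0 of 17 of complex V (1 and 8 higher with total counts). For complex III 1 of 9 was called lower (Uqcrh, −0.68), and for complex IV 1 of 10 higher (Cox5a, 1.29, adjusted p = 2.81e-06 by edgeR's quasi-likelihood test). With total counts 3 of complex III were higher and 1 lower, and 6 of complex IV were higher. In O-NR mice 0 of 7, 4 of 9, 8 of 10 and 8 of 17 were higher in CLPs and none lower, where 18.3% of all genes were higher and 22.6% lower. The genes for proteins that cut, stabilise and modify mitochondrial RNA were set beside the shares of all genes in O-WT mice. These were 22.6% higher and 21.5% lower in GMPs and 10.4% higher and 19.9% lower in CLPs. Of 21 tested genes for RNA processing 16 were higher and 1 lower in GMPs than in HSCs of O-WT mice, among them Lrpprc, which stabilises mitochondrial mRNAs (1.35, SE 0.17, adjusted p = 1.2e-07 by edgeR's quasi-likelihood test), Tbrg4 (1.31) and the poly(A) exonuclease Pde12 (1.05). With total counts 9 of these genes were higher and 2 lower in GMPs. In CLPs 0 of 21 were higher and 2 lower, Hsd17b10, a subunit of the enzyme that trims tRNA 5′ ends (−1.67, SE 0.19, adjusted p = 3.52e-08), and Ptcd1 (−0.48, adjusted p = 0.0475), and with total counts 2 were higher and 1 lower. The share of this list called in CLPs lay below that of all genes.

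The next 3 lists are read against the same shares, 22.6% of all genes higher and 21.5% lower in GMPs and 10.4% higher and 19.9% lower in CLPs of O-WT mice. Of the 22 genes for rRNA and tRNA modification 8 were higher and 1 lower in GMPs, with Trnt1, which adds the CCA end to tRNAs, at 1.0, and in CLPs 1 was higher (Trit1, 0.59) and 1 lower (Trmu, −0.58). With total counts 3 were higher and 4 lower in GMPs, so this list had no stable direction there, and 3 were higher and 0 lower in CLPs. Of the 10 transcription genes 2 were higher and 1 lower in GMPs of O-WT mice: Mrpl12 (1.71, adjusted p = 3.95e-09), a ribosomal protein, the polymerase Polrmt (0.46, adjusted p = 0.0179) and Mterf2 (−1.28, adjusted p = 0.000826) by edgeR's quasi-likelihood test. In CLPs Polrmt was lower (−0.48, adjusted p = 0.0215) and no other gene of this list was called. With total counts 1 transcription gene was higher and 3 lower in GMPs, and 1 higher and 1 lower in CLPs. Of 14 genes that maintain mitochondrial DNA 6 were higher and 4 lower in GMPs, with the DNA polymerase Polg at 0.88 and the primase Primpol at −0.91, while 0 were higher and 6 lower in CLPs, among them the nucleoside kinases Dguok (−0.78) and Tk2 (−0.82) and the membrane protein Mpv17 (−1.08). With total counts 4 were higher and 6 lower in GMPs and 1 higher and 5 lower in CLPs.

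No member was called between O-NR and O-WT mice in any cell type or cohort. In cohort 2 the count was 0 of 19 for HSCs, 0 of 18 for CLPs and 0 of 14 for GMPs, and in cohort 1 HSCs 0 of 18, by edgeR's quasi-likelihood test and by DESeq2, against 0% of all genes in each comparison by edgeR's quasi-likelihood test. At an unadjusted p under 0.05 there were 6 of 19 members in HSCs (4.06% of all genes), 6 of 18 in CLPs (3.21%), 1 of 14 in GMPs (4.83%) and 0 of 18 in cohort 1 (0.546%). The fitted values leaned to one side in cohort 2 HSCs, with 16 of 19 above 0 (13 with total counts) and a median of 0.17 on the log2 scale, and in CLPs, with 18 of 18 above 0 (18 with total counts) and a median of 0.51. In GMPs 8 of 14 were above 0 (8 with total counts, median 0.01), and in cohort 1 HSCs 0 of 18 were above 0 (0 with total counts, median −0.25). The members are measured in the same libraries and are not independent, so these counts describe few libraries.

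In CLPs the lowest unadjusted p-values were those of mt-Nd3 and mt-Tw. The level of mt-Nd3 was 15.5, 13.2, 15.4 and 17.6 CPM in O-WT and 20.4, 14.2, 28.1 and 34.6 CPM in O-NR CLPs, so that 1 O-NR library lay within the O-WT range. Its log2 difference was 0.75 (SE 0.24, adjusted p = 1.0) by edgeR's quasi-likelihood test. The tryptophan tRNA mt-Tw was at 4.52, 7.04, 7.93 and 10.2 CPM in O-WT and 7.7, 7.79, 17.2 and 22.1 CPM in O-NR CLPs, with 2 O-NR libraries in the O-WT range and a log2 difference of 0.98 (SE 0.34, adjusted p = 1.0) by edgeR's quasi-likelihood test. For mt-Nd1 the O-NR CLP libraries held 1550, 1559, 2344 and 2640 CPM against 1140 to 1588 CPM in O-WT. The same 2 libraries, O-NR CLP replicates 3 and 4, were highest for all 3 genes. Their mRNA shares were 1.51% and 1.55%, beside 1.10% and 1.05% in the other two O-NR CLP libraries.

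In cohort 2 HSCs mt-Nd1 had the lowest p, with 763, 733, 686 and 656 CPM in O-WT and 778, 854, 976 and 929 CPM in O-NR libraries, which did not overlap (3.09% of all genes did not). Its log2 difference was 0.37 (SE 0.13, adjusted p = 0.995 by edgeR's quasi-likelihood test). In the same HSCs mt-Cytb was at 1695, 1792, 1557 and 1474 CPM in O-WT and 1706, 1931, 2183 and 1975 CPM in O-NR libraries, which overlapped. In GMPs mt-Nd1 again had the lowest p, with 1226, 1110, 1182 and 1012 CPM in O-WT and 1340, 1332, 1494 and 1252 CPM in O-NR libraries, which did not overlap (3.49% of all genes did not), and a log2 difference of 0.23 (SE 0.09, adjusted p = 0.997 by edgeR's quasi-likelihood test). Cohort 2 thus had higher mean mt-Nd1 in O-NR mice in all 3 cell types, none of them past the adjusted threshold. Of mRNA reads, mt-Nd1 was higher without overlap in O-NR CLPs and GMPs, and overlapped between arms in HSCs. By this measure 1 of 13 mRNAs did not overlap in CLPs, 2 in GMPs and 0 in HSCs. The other gene in GMPs was mt-Co1, which was lower in O-NR mice (31.7% against 32.9%). This measure has no share over all genes to set beside these counts.

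**Figure D4:**
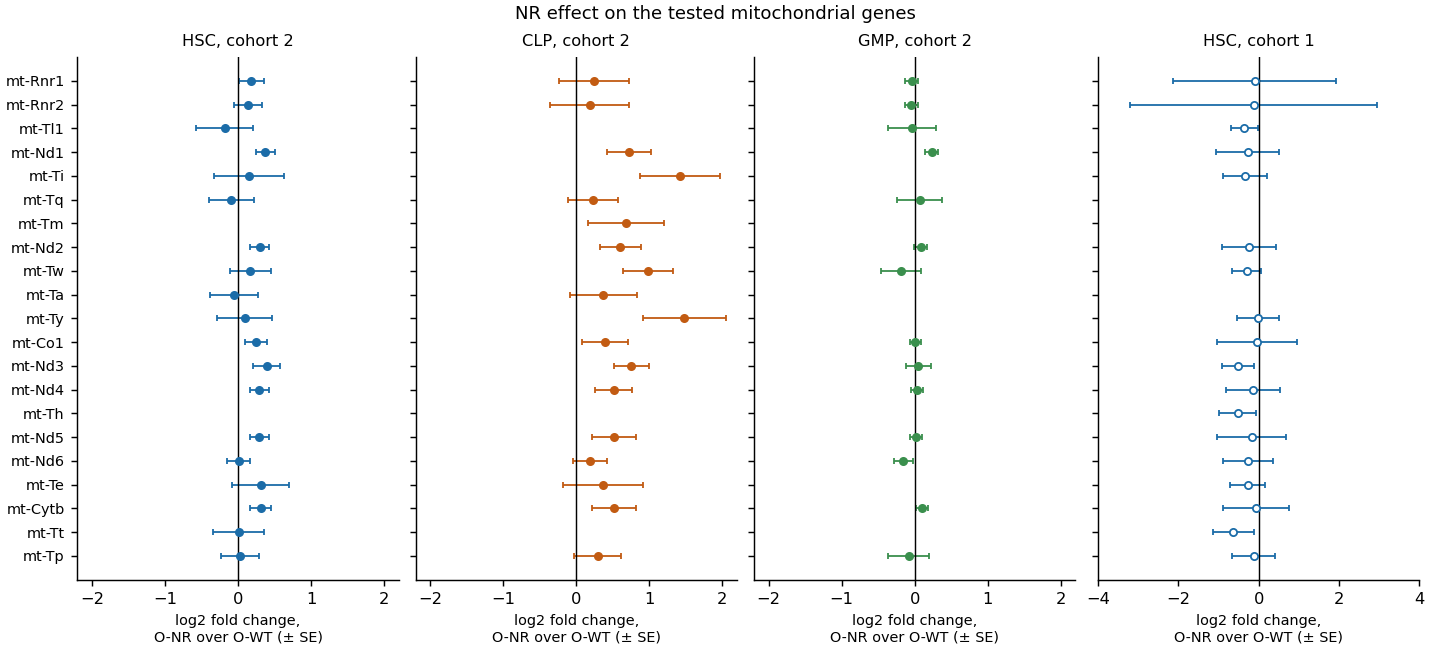
Log2 difference between O-NR and O-WT libraries for each tested mitochondrial gene in cohort 2 HSCs, CLPs and GMPs and in cohort 1 HSCs, with its standard error from the edgeR fit, and a wider axis for cohort 1. All 18 values lie above 0 in CLPs and all 18 below 0 in cohort 1 HSCs, and no value was called after adjustment.

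Whether the NR difference itself differed between cell types or cohorts was tested with interaction terms, and 0 of 20 members were called in any of the 4. Between CLPs and HSCs 1 member had an unadjusted p under 0.05 (mt-Ty, 1.35, SE 0.63, adjusted p = 1.0 by edgeR's quasi-likelihood test), against 2.3% of all genes, and 0.00443% of all genes were called. Between GMPs and HSCs 0 members had an unadjusted p under 0.05 (1.41% of all genes), and 0.00443% of all genes were called. Between GMPs and CLPs mt-Tw had the lowest p (−1.20, SE 0.42, adjusted p = 0.992 by edgeR's quasi-likelihood test), and 5 members had an unadjusted p under 0.05 (2.9% of all genes). Between cohorts mt-Nd3 had the lowest (0.97, SE 0.41, adjusted p = 0.998). It was the 1 member there with an unadjusted p under 0.05 (1.91% of all genes). In both of these 0% of all genes were called. The opposite signs of the cohorts were therefore not shown to differ for any single member. The 8 nuclear lists had 0 genes called between O-NR and O-WT mice, and at an unadjusted p under 0.05 held 6 of 109 tested genes for HSCs, 5 of 110 for CLPs and 6 of 109 for GMPs in cohort 2 and 0 of 109 in cohort 1.

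In cohort 1 the mitochondrial share varied more between libraries of 1 treated group, O-NR or O-NR-RC, than between the 3 group means. The share was 6.69% and 6.93% in O-WT, 4.93%, 4.68%, 7.79% and 8.11% in O-NR and 8.14%, 4.59% and 5.29% in O-NR-RC HSCs. The O-NR and O-NR-RC libraries lay on both sides of the O-WT libraries. Means were 6.81% ± 0.171 (SD, n = 2), 6.38% ± 1.82 (SD, n = 4) and 6.01% ± 1.88 (SD, n = 3). The mRNAs were 0.611% ± 0.0141, 0.565% ± 0.176 and 0.541% ± 0.122 of reads. The level of mt-Nd6 was 352 and 310 CPM in O-WT, 212, 212, 342 and 358 CPM in O-NR and 315, 234 and 288 CPM in O-NR-RC libraries, and its groups overlapped in every pairing.

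The 4 cohort 1 libraries with the lowest shares stood apart in another class of genes. O-NR replicates 1 and 2 and O-NR-RC replicates 2 and 3 had shares of 4.59% to 5.29% and a summed level of 14277 to 15260 CPM over 1971 olfactory and vomeronasal receptor genes. The other 5 libraries had shares of 6.69% to 8.14% and 4445 to 9082 CPM of these genes, and cohort 2 libraries 858 to 8303 CPM. The part of these genes' reads in the mitochondrial differences was not tested. Without the 4 libraries the O-NR libraries left, replicates 3 and 4, held 7.79% and 8.11%, above both O-WT libraries (6.69% and 6.93%). The log2 ratio of the O-NR-RC to the O-WT share then turned from −0.18 to 0.26, which rests on 1 O-NR-RC library. In the same fit 0 members were called in each of the 3 comparisons of cohort 1, where 51 (O-NR against O-WT), 122 (O-NR-RC against O-NR) and 438 (O-NR-RC against O-WT) of 33350 genes were called, with the lone O-NR-RC library assumed to vary like the other groups.

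No member was called after NR was withdrawn either. Against O-NR, O-NR-RC HSCs had 0 of 18 members called by edgeR's quasi-likelihood test or DESeq2 and 0 at an unadjusted p under 0.05 (0.291% of all genes), with 2 of 18 values above 0 and a median of −0.12 on the log2 scale. Against O-WT, 0 of 18 were called and 2 had an unadjusted p under 0.05 (0.795% of all genes): the leucine tRNA mt-Tl1 (−0.91, SE 0.37, adjusted p = 1.0) and mt-Tt (−1.3, SE 0.56, adjusted p = 1.0 by edgeR's quasi-likelihood test). In both comparisons 0% of all genes were called. The 3 comparisons of cohort 1 share their groups pairwise, so their values are not independent.

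HSCs of the 2 cohorts differed in single tRNAs by several times. With O-WT and O-NR HSCs pooled, mt-Tq lay at 0.129 to 0.96 CPM in the 6 libraries of cohort 1 and at 8.53 to 32.4 CPM in the 8 of cohort 2. For mt-Ta the ranges were 0.488 to 1.26 CPM and 3.83 to 12.5 CPM. The opposite held for mt-Th, at 4.59 to 11.8 CPM in cohort 1 and 0 to 0.237 CPM in cohort 2, and for mt-Ty, at 7.62 to 17.4 CPM and 2.05 to 5.21 CPM. None of these tRNA ranges overlapped. Of the 13 mRNAs and 2 rRNAs, 6 did not overlap between cohorts. The share of all genes that did not overlap between cohorts was not computed. These ranges, those of the tRNAs included, are thus not set apart from other genes. Higher in cohort 1 were 2 mRNAs with near-identical nuclear copies, mt-Co2 (0.711 to 2.07 against 0.0691 to 0.633 CPM) and mt-Nd3 (14.4 to 29.8 against 9.54 to 14.4 CPM, apart before rounding). Higher in cohort 2 were mt-Co1 (1356 to 2484 in cohort 1 against 2617 to 3637 CPM), mt-Cytb (611 to 1271 against 1474 to 2183 CPM), mt-Rnr1 (10777 to 20049 against 27629 to 34852 CPM) and mt-Rnr2 (32093 to 53689 against 68364 to 84937 CPM). Cohort and batch are one here, so these ranges are a description, with no test.

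**Figure D5:**
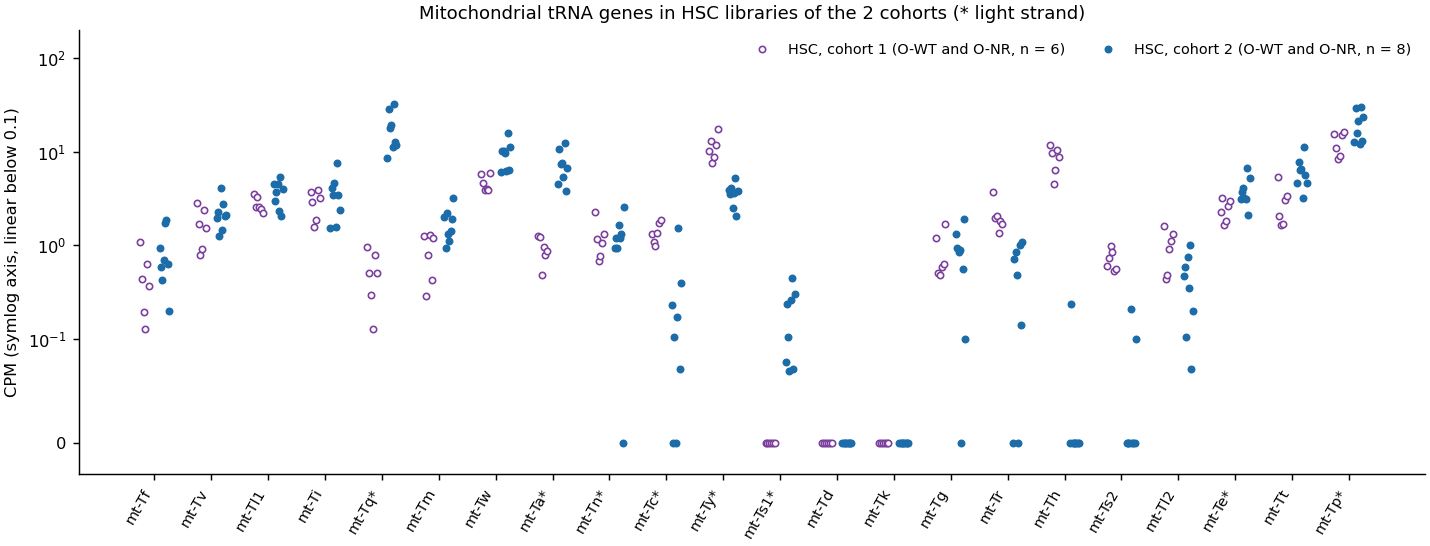
Levels of the mitochondrial tRNAs in HSC libraries of O-WT and O-NR mice, in CPM on a log axis that is linear near 0, for the 6 libraries of cohort 1 and the 8 of cohort 2. mt-Tq and mt-Ta are higher in every cohort 2 library, and mt-Th and mt-Ty in every cohort 1 library.

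Other tRNAs were at or near 0. mt-Td and mt-Tk were at 0 in every library, which allows up to 3 counts in each, and mt-Ts2 lay at 0.532 to 0.976 CPM in cohort 1 and at 0 to 0.207 CPM in cohort 2. A tRNA gene is shorter than the sequenced read, and mature tRNAs are folded and modified, which hinders reverse transcription. Reads counted for a tRNA gene may hold a precursor or a neighbouring RNA that spans it, so the counts are not levels of mature tRNA.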

How the data were processed

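Reads had been trimmed by the authors (trim galore, cutadapt), mapped with STAR against mm10 and assigned to Gencode genes by featureCounts. The deposited values are whole-number raw counts for 33 libraries and 55376 genes, and the authors' settings for strand and multiply mapped reads are not given in the sources used here. The paper names a stranded total RNA kit and the labels a standard one. The kit depletes ribosomal cDNA, so rRNA counts are what remained. The members and lists were chosen with earlier results of these data known.

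Counts were tested with edgeR 4.0.16 in R 4.3.3 (quasi-likelihood, TMM, genes over 3 CPM in as many libraries as the smallest group). P-values were adjusted by Benjamini-Hochberg over all tested genes and called under 0.05. Cell types were fitted per treatment (12 libraries), NR per cell type (8 libraries), cohort 1 alone (9 libraries), and interactions over 24 and 14 libraries. The script was tested on simulated data. All 37 genes could be named, with library values for mt-Rnr1, mt-Rnr2, mt-Nd6, mt-Co1, mt-Cytb and the 2 lowest p-values of a comparison, and up to 3 genes of lowest p per nuclear list and comparison. The library values of mt-Ta, mt-Th and mt-Ty and the ranges between cohorts were added after values were seen. Shares carry no test. Alternatives were DESeq2 1.42.0, other scalings, filters, denominators, a replicate block and leaving out libraries. Gene names matched Gencode M21 for 54510 of 55376 symbols.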

Additional observations from a re-analysis of the deposited data

Results flagged for a closer look

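In 7 of 164 groups of 4 libraries tested, 1 library of a mitochondrial gene lay far from the other three, where chance gives about 8.2. Of the RNAs named in the report, mt-Tq stood at 32.4 CPM in HSC O-NR replicate 2 of cohort 2 against 11.2, 11.9 and 12.9 CPM. In CLPs, mt-Ta was at 6.47 CPM in O-WT replicate 3 against 2.86, 3.02 and 3.15 CPM. O-NR CLP replicate 3 stood apart for 2 tRNAs, with mt-Tt at 9.67 CPM against 1.71, 2.72 and 2.9 CPM and mt-Ty at 19.3 CPM against 2.04, 2.48 and 3.24 CPM. The tryptophan tRNA mt-Tw was at 5.9 CPM in cohort 1 O-NR HSC replicate 4 against 3.91, 3.93 and 4.01 CPM, and at 6.05 CPM in cohort 2 O-WT HSC replicate 1 against 9.67, 10.1 and 10.2 CPM. In GMPs mt-Co1 was at 2981 CPM in O-NR replicate 3 against 2700, 2741 and 2748 CPM.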

How the results depend on the processing

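Leaving aside fits without 1 library, counts of called members outside 1.5 times their main value occurred between GMPs and CLPs. In O-WT mice the count was 0 and became 1 with relative log expression, 6 with total counts, and 2 with DESeq2, without a filter and at 1 CPM. In O-NR mice it was 7 and became 16 with total counts and 3 without a filter or at 1 CPM. Leaving out 1 library gave 4 to 7 calls for CLPs against HSCs, 6 to 11 for GMPs against HSCs and 0 to 1 for GMPs against CLPs in O-WT mice, and 6 to 8, 5 to 9 and 4 to 12 in O-NR mice. The 11 came without CLP O-WT replicate 3 and the 5 without HSC O-NR replicate 2, both over 1.5 times from the full counts of 7 and 8. Between GMPs and CLPs of O-NR mice 11 and 12 came without CLP O-NR replicates 1 and 2, and 4 without CLP O-NR replicate 3 or GMP O-NR replicate 1, 2 or 4. All NR and interaction counts were 0 under every alternative run. Without a filter the calls of mt-Nd6 in GMPs and, with that at 1 CPM, of mt-Nd1 and mt-Nd2 in CLPs and mt-Nd2 in GMPs of O-WT mice were lost. Against HSCs of O-NR mice the calls of mt-Nd4 and mt-Nd5 in CLPs and mt-Nd2 in GMPs were lost both without a filter and at 1 CPM.

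With the replicate number as a block the count between GMPs and CLPs of O-NR mice was 4, and no other count moved by over 1.5 times. Same-numbered libraries did not deviate together (correlations from −0.51 to 0.42 in O-WT and −0.44 to 0.25 in O-NR cell types), so the numbers were not taken to pair libraries, and the interactions were not fitted with a block.

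With mitochondrial rRNA left out of the totals and of the share, the log2 ratio of shares moved from −0.11 to 0.28 for CLPs and from −0.34 to 0.01 for GMPs over HSCs of O-WT mice. In O-NR mice it moved from −0.09 to 0.46 for CLPs and from −0.46 to −0.14 for GMPs over HSCs, and from −0.36 to −0.60 for GMPs over CLPs. For O-NR over O-WT it moved from 0.11 to 0.23 in HSCs and from 0.13 to 0.42 in CLPs. Over nuclear protein-coding counts GMPs of O-NR mice were at −0.55 over HSCs and −0.50 over CLPs. Without the 4 cohort 1 libraries high in olfactory receptor genes, an alternative chosen after seeing the data, O-NR-RC over O-WT was 0.26 with 1 O-NR-RC library. The O-NR libraries left had shares above both O-WT libraries. Without cohort 1 O-WT replicate 1 the O-NR difference of mt-Nd3 turned from −0.51 to 0.03 and that of mt-Tt from −0.64 to 0.34, and without replicate 2 they were −0.90 and −1.22. The causes were not tested. A search of the whole nuclear genome for copies was not run. tRNA levels of a few CPM, 2 O-WT libraries in cohort 1 and a wide rRNA spread in the fits limit what could be detected.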
